A study of Mus musculus with 6 samples.

Results

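The genes described here are the glucocorticoid receptor gene, its closest relative and a set of widely used glucocorticoid target genes, 10 symbols among the 53819 of the deposited count table: Nr3c1, Nr3c2, Fkbp5, Tsc22d3, Per1, Sgk1, Dusp1, Zbtb16, Cebpb and Cebpd. They were taken by symbol, with earlier results of these data known. All 10 had enough reads for a test, with at least 10 reads of each gene in every library. Gene expression was measured by sequencing of polyadenylated RNA in gastruloids grown in 3D from E14, a line of mouse embryonic stem cells. One group of 3 libraries was untreated and the other group of 3 came from aggregates kept with budesonide, a synthetic glucocorticoid, for 80 h. All 6 libraries share the one cell line. The labels mention no vehicle for the untreated aggregates and no collection time for them, and they leave unsaid whether each replicate was a culture of its own. The p-values therefore reflect no more than how these 6 samples spread, and that spread may be technical.

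Glucocorticoids act through the glucocorticoid receptor, a nuclear receptor that waits in the cytoplasm in a complex with HSP90 and immunophilins. On binding a steroid the receptor moves to the nucleus, where it binds palindromic DNA elements and raises transcription of genes such as Fkbp5, Tsc22d3 and Per1, and lowers the activity of NF-kB and AP-1. Several of its targets then restrain the signal: FKBP5 lowers the receptor's affinity for hormone, and the phosphatase DUSP1 and the leucine zipper protein GILZ, made from Tsc22d3, dampen inflammatory signalling.

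With budesonide 3 of the 10 genes rose and none fell over all genes tested. The rises were in Cebpd, 3.01-fold, Per1, 1.31-fold, and the receptor gene Nr3c1 itself, 1.22-fold, and the call for Nr3c1 was lost in 7 of 15 alternatives. Fkbp5 and Dusp1 lay within 1.02-fold of their untreated means. Among all 17155 genes tested, 15.2% rose and 13.5% fell by the same test, edgeR's quasi-likelihood test with a Benjamini-Hochberg adjusted p under 0.05. This split depended on the scaling, with 12.7% higher and 16.7% lower under upper quartile scaling and 11.7% and 18.6% with no scaling factors, which moved the median log2 fold change of all genes to -0.07 and -0.10. The median log2 fold change of the 10 genes was 0.07 (-0.01 to 0.17 over the alternatives), beside -0.02 for all genes tested. All 3 budesonide libraries lay above all 3 untreated ones for 3 of the 10 genes and below them for 1, where 19.8% of all genes were separated in each direction. These are aggregates measured in bulk, so fewer cells expressing a gene and less RNA per cell cannot be told apart.

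**Figure D1:**
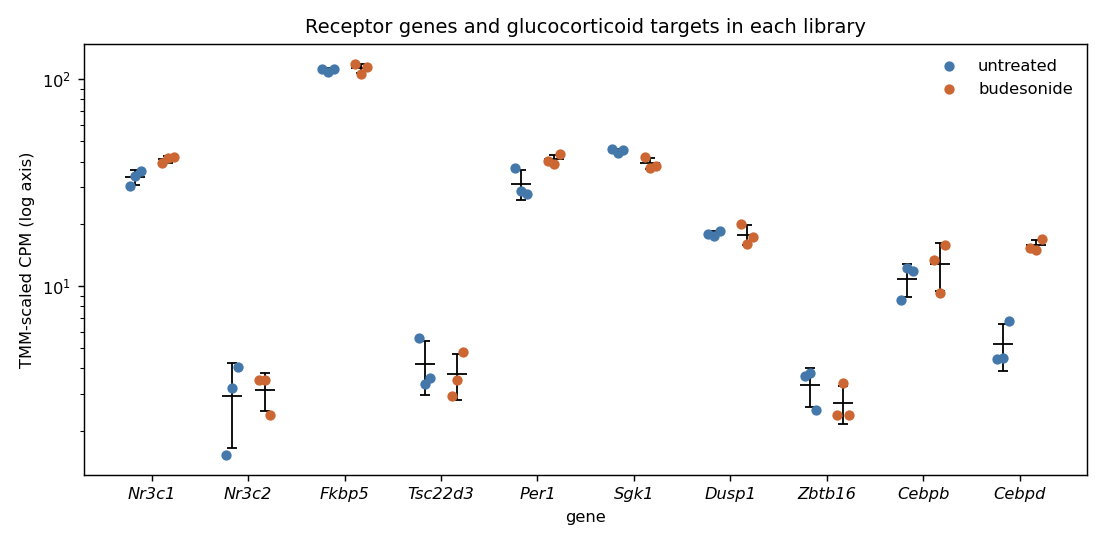
Counts scaled by library size and TMM factor (CPM, log axis) of the 10 genes in each library, with 3 untreated (blue) and 3 budesonide (orange) libraries, and the mean and SD in black. Cebpd stands apart between the groups, at 4.42 to 6.76 CPM without and 15.0 to 16.9 CPM with budesonide, while the points of Fkbp5 and Dusp1 lie side by side.

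The libraries held 5666168 to 7476862 counted reads. A count of 3 reads corresponded to 0.422 to 0.552 CPM, so Nr3c2 and Zbtb16, at 1.52 to 4.09 CPM, were measured on 10 to 27 reads a library. As a check of the label, all 8 stem cell markers listed, among them Pou5f1 and Sox2, were expressed, with a summed level of 1971 to 1992 CPM in untreated and 2053 to 2223 CPM in budesonide libraries. Within that sum 4 of the 8 rose, Sox2 from 140.0 ± 4.48 to 258.7 ± 6.71 CPM among them, and Cdh1 and Epcam fell. Summed markers of other cells were low in both groups for fibroblasts (23.4 to 26.6 and 15.6 to 17.8 CPM summed over 8 genes), macrophages and blood (16.9 to 20.0 and 16.9 to 19.7 CPM over 8 genes), adipocytes (11.3 to 12.9 and 8.17 to 11.5 CPM over 6 genes), extraembryonic endoderm (35.0 to 38.6 and 34.9 to 40.2 CPM over 8 genes) and trophoblast (35.2 to 46.6 and 34.4 to 41.8 CPM over 7 genes). The trophoblast sum held opposite changes, as Cdx2 fell from 10.7 ± 1.47 to 0.474 ± 0.167 CPM and Tfap2c rose from 18.5 ± 2.97 to 27.8 ± 3.98 CPM. Summed markers of the mesoderm and streak went from 148.8 to 159.8 CPM down to 13.1 to 15.3 CPM (8 genes). Of these 8 genes only 3, T, Eomes and Mixl1, had enough reads for a test. All 3 fell, where 13.5% of all genes did. The neural sum went from 174.7 to 187.2 CPM down to 87.5 to 91.1 CPM (8 genes). The endothelial sum went from 47.2 to 54.9 CPM up to 106.1 to 112.9 CPM (6 genes). Of 6 neural markers tested 4 fell, with Nes from 130.9 ± 5.21 to 36.0 ± 1.96 CPM making up most of the untreated sum, while Tubb3 rose 2.17-fold and Pax6 1.78-fold. Of 4 endothelial markers tested 2 rose and 0 fell, beside 15.2% and 13.5% of all genes, with a median log2 fold change of 0.27. The 2 that rose were Pecam1 and Tek. A summed level does not show which cells carried the transcripts, so the higher endothelial sum does not show a gain of endothelial cells. Over the alternatives Pecam1 rose by 1.48 to 1.59 in log2 terms, and Tek by 0.27 to 0.48. Tek was not called by DESeq2 (adjusted p = 0.12), nor by edgeR without untreated replicate 2 (0.223). The edgeR call of Tek was also lost under upper quartile scaling (0.0594), without scaling factors (0.0839) and with no filter on low counts (0.0922). It was lost too without budesonide replicate 1 (0.0545), 2 (0.058) or 3 (0.0523) and at a threshold of 0.01. None of these markers was without reads in all libraries. The part of such shifts in the changes below was not tested.

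The receptor binds DNA as a dimer, at an inverted repeat called a glucocorticoid response element (GRE). RefSeq start windows of 250 bases before the transcription start (build GRCm38.p6) were matched for 7 of the 10 genes, 15 windows in all, and not for Nr3c1, Zbtb16 and Cebpd. They were searched on both strands for the full element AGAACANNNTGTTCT, its looser core GNACANNNTGTNC, the half-site AGAACA, the cyclic AMP element TGACGTCA, the E-box CACGTG and the TATA box TATAAA. Each full element also contains the core and 2 half-sites. The full element was in 1 of the 15 windows and in 0.00913% of all 32851 windows of the same length (3 windows), and the core in 1 of the 15 and 0.387% of all. The half-site was in 4 of the 15 and 16.1% of all, and the E-box in 4 and 6.02%. The cyclic AMP element was in 1 and 1.55%, and the TATA box in 2 and 12.4%. Sgk1, Per1 and Tsc22d3 each have more than 1 window, for alternative starts, so these are counts of windows and not of genes. The half-site was found only in windows of Sgk1 and Tsc22d3, and the TATA box only in windows of Sgk1. The 4 windows below are shown because they belong to targets that the results turn on: the Sgk1 window with the full element, the Per1 window with an E-box, the element through which the clock proteins act, the Dusp1 window with the cyclic AMP element, and the Fkbp5 window, whose gene is a common readout of the receptor. Bases in capitals are matches to the motifs, and each line runs 5′ to 3′ along the gene's strand.
Sgk1, chr10:21993640-21993889, plus strand: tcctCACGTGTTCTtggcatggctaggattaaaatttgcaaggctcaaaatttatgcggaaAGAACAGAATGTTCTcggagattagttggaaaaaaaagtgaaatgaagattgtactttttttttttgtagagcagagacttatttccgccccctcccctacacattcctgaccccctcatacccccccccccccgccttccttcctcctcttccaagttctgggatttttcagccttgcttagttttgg
Per1, chr11:69098699-69098948, plus strand: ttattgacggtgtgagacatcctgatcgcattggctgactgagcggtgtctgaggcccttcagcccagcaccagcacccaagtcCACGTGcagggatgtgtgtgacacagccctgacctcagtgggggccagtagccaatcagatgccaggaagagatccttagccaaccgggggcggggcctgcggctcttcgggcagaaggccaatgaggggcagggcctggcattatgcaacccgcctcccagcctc
Dusp1, chr17:26508473-26508722, minus strand: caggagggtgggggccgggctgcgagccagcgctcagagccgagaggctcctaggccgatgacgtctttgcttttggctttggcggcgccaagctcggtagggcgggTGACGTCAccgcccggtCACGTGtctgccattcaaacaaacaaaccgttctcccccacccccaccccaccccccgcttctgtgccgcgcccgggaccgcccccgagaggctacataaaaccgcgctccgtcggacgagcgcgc
Fkbp5, chr17:28486150-28486399, minus strand: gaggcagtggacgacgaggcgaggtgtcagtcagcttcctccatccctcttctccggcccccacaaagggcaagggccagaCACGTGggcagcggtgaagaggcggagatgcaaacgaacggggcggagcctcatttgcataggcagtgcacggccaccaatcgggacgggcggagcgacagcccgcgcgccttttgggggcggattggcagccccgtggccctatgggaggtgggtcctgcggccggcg

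In the Sgk1 window the palindrome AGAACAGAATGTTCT begins 189 bases before the start of that window's transcript and 965 bases before the next start that RefSeq lists for Sgk1. The E-box and the half-site at the window's beginning overlap. The E-box begins 166 bases before the start in Per1, 126 in Dusp1 and 169 in Fkbp5, and the cyclic AMP element of Dusp1 begins 143 bases before it. Of these 4 genes Per1 rose, and Sgk1, Dusp1 and Fkbp5 did not pass the test. A match describes the sequence and does not show that a factor was bound, and a window without one says nothing about elements farther away.

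The receptor gene Nr3c1 was expressed in all libraries. It stood at 30.5, 34.2 and 36.0 CPM in the 3 untreated libraries and at 39.2, 41.7 and 42.3 CPM in the 3 budesonide libraries. Every budesonide library was above every untreated one, though the nearest 2 libraries, at 36.0 and 39.2 CPM, lay close. In log2 terms Nr3c1 rose by 0.29 ± 0.10 (SE), with a 95% interval of 0.09 to 0.48 and an edgeR adjusted p of 0.0191. DESeq2 did not call it, at an adjusted p of 0.0692. The edgeR call was also lost under upper quartile scaling (adjusted p = 0.0566), without scaling factors (0.0908), when low counts were kept (0.0802), without untreated replicate 1 (0.0924), without budesonide replicate 3 (0.0536) and at a threshold of 0.01. The share of all genes that rose was 13.5% in DESeq2, 4.32% when low counts were kept, 13.6% and 13.1% without those replicates and 11.3% at that threshold. Its log2 fold change was above 0 in all 15 alternatives, from 0.21 to 0.35.

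Nr3c2 encodes the mineralocorticoid receptor, which binds both aldosterone and glucocorticoids and recognises the same DNA element. It had 10, 23 and 26 reads in the untreated libraries, or 1.52, 3.23 and 4.09 CPM, and 25, 24 and 13 reads with budesonide, or 3.52, 3.53 and 2.39 CPM. The groups overlapped, and the untreated libraries alone spanned more than the budesonide ones. With a log2 fold change of 0.11 ± 0.32 (SE) and adjusted p = 0.841 by edgeR, Nr3c2 did not pass, and its 95% interval ran from -0.54 to 0.77, or 0.688 to 1.70 in fold. Nr3c1 was the more abundant of the pair per length: 4.37 ± 0.364 CPM per kilobase of exon against 0.455 ± 0.201 in untreated libraries (mean ± SD, n = 3), with lengths from GENCODE M21.

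Other steroid receptor genes moved in both directions. Of 9 genes of this list tested, the receptor pair included, 2 rose and 3 fell (22.2% and 33.3%, beside 15.2% and 13.5% of all genes), and the median log2 fold change was 0.06 (-0.15 to 0.07 over the alternatives). Pgr, the progesterone receptor, fell from 4.55 ± 1.08 to 2.02 ± 0.332 CPM (mean ± SD, n = 3 per group). Esrrb, an orphan receptor of the stem cell state whose name places it near the oestrogen receptors, rose from 96.5 ± 7.76 to 284.7 ± 21.5 CPM. Esrra also fell, but was not called by DESeq2 (adjusted p = 0.123), nor by edgeR without untreated replicate 1 (0.107), untreated replicate 3 (0.0748) or budesonide replicate 2 (0.0621).

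Over the 6 libraries the genes whose profile was nearest to that of Nr3c1 were Wdr35, Frg1 and Stx3, with root mean square distances of 0.0229, 0.0353 and 0.0355 in centred log2 CPM, among genes averaging at least 5 CPM. Wdr35 went from 142.4 ± 11.7 to 176.0 ± 6.94 CPM, Frg1 from 46.0 ± 3.56 to 57.9 ± 1.86 CPM and Stx3 from 122.3 ± 9.92 to 153.1 ± 5.28 CPM. With 6 libraries in 2 groups such nearness is a description only.

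Fkbp5 encodes FKBP51, the immunophilin by which the receptor limits its own activity. Its untreated libraries gave 112.5, 108.0 and 112.6 CPM and its budesonide libraries 118.2, 106.5 and 114.4 CPM. The groups overlapped, with the lowest and the highest value both from budesonide libraries. Fkbp5 changed by 0.03 ± 0.07 (SE) on the log2 scale, which did not pass (edgeR adjusted p = 0.820), and its 95% interval in fold ran from 0.928 to 1.12. It was the most precisely measured of the 10, resting on 622 to 839 reads a library. Its sign turned with the scaling, at -0.03 with upper quartile and -0.05 with no scaling factors.

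The 14 other FK506-binding protein genes gave 5 rises and 2 falls, where 15.2% of all genes rose and 13.5% fell. Fkbp4, whose protein FKBP52 takes the place of FKBP51 when the receptor is activated, fell from 580.4 ± 9.04 to 493.5 ± 27.7 CPM (edgeR adjusted p = 0.000633), a log2 fold change of -0.23 ± 0.05 (SE). Fkbp6, a germ cell member, rose 3.43-fold from 1.78 ± 0.602 to 6.18 ± 0.260 CPM, and Fkbp3 rose 1.24-fold. Fkbp10, an endoplasmic reticulum member that acts on collagen, fell 1.61-fold, but not without untreated replicate 1 (adjusted p = 0.0713).

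Tsc22d3 encodes GILZ, a protein that binds NF-kB and AP-1. The untreated libraries gave 5.64, 3.37 and 3.61 CPM, from 37, 24 and 23 reads, and the budesonide libraries 2.96, 3.53 and 4.78 CPM, from 21, 24 and 26 reads. The highest value was that of an untreated library, and the groups overlapped. At -0.18 ± 0.28 (SE) in log2 terms, the difference failed the test (edgeR adjusted p = 0.686). Its interval in fold ran from 0.595 to 1.30, and the sign turned to 0.09 without untreated replicate 1. In the TSC22 family, whose members share a leucine zipper, Tsc22d1 rose from 93.0 ± 1.34 to 115.7 ± 4.21 CPM (edgeR adjusted p = 0.000200). Tsc22d4 was at 29.1 ± 4.60 and 24.4 ± 4.24 CPM (adjusted p = 0.106) and passed as lower under upper quartile scaling (0.0482), when no scaling factors were used (0.0336), and without untreated replicate 2 (0.0367) or budesonide replicate 3 (0.0206).

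Per1, a repressor of the circadian clock that glucocorticoids induce in many tissues, rose. The untreated libraries were at 37.4, 28.8 and 27.8 CPM and the budesonide libraries at 40.4, 39.1 and 43.4 CPM. Untreated replicate 1 stood above the other two and just under the lowest budesonide library, and the groups did not overlap. This was a log2 fold change of 0.39 ± 0.10 (SE; edgeR adjusted p = 0.00326), 0.31 to 0.54 over the 15 alternatives. It passed in every one of them, with adjusted p from 5.97e-05 to 0.0332.

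The other PER genes went the opposite way, though Per2 is itself on the list of other known glucocorticoid targets given below. Per2 fell from 13.0 ± 1.76 to 8.58 ± 0.489 CPM and Per3 from 22.8 ± 1.11 to 15.4 ± 0.732 CPM, although DESeq2 did not call Per2 (adjusted p = 0.0634). Of 23 clock genes tested 8 rose, Per1 included, and 3 fell (34.8% and 13.0%, beside 15.2% and 13.5% of all genes), and the median log2 fold change was 0.19 (0.11 to 0.22 over the alternatives). Cry1, a partner of the PER proteins, rose from 47.9 ± 3.08 to 62.3 ± 0.310 CPM. The repressors Bhlhe40 and Bhlhe41, which act on E-boxes like the one printed above, rose 1.42-fold and 1.79-fold.

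Sgk1, the serum and glucocorticoid regulated kinase, controls sodium channels and cell survival downstream of PI3K. It gave 45.9, 44.0 and 45.4 CPM untreated and 42.1, 37.2 and 38.2 CPM with budesonide. Each budesonide library lay below each untreated one. On the log2 scale the difference was -0.20 ± 0.09 (SE), which missed the threshold over all genes (edgeR adjusted p = 0.0953). Its interval, not adjusted for the number of genes, was 0.768 to 0.988 in fold. It passed as lower under upper quartile scaling (adjusted p = 0.0250) and when no scaling factors were used (0.0133), and it was below 0 in all 15 alternatives. This is the gene whose window holds the full GRE shown above.

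Its relative Sgk3 was at 17.5 ± 0.674 and 17.5 ± 2.24 CPM. Of 10 other genes around SGK and AKT, 3 rose and 2 fell, where 15.2% and 13.5% of all genes did. Nedd4, a ubiquitin ligase, rose 1.19-fold, Pdpk1, which encodes the kinase that activates SGK1 and AKT, 1.32-fold, and Rictor, a subunit of the complex mTORC2 that phosphorylates both, 1.19-fold. Akt1 fell from 45.9 ± 2.47 to 25.9 ± 2.30 CPM.

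Dusp1 encodes a nuclear phosphatase that switches off p38 and JNK. The values were 17.8, 17.4 and 18.5 CPM in untreated and 19.9, 16.0 and 17.3 CPM in budesonide libraries. The budesonide values enclosed the untreated ones on both sides. Dusp1 differed by -0.01 ± 0.13 (SE) in log2 terms (edgeR adjusted p = 0.961), with an interval of 0.826 to 1.19 in fold. Of 9 other MAP kinase phosphatase genes 2 rose and 1 fell, where 15.2% and 13.5% of all genes did. Dusp4, an ERK-inducible nuclear member, rose from 53.6 ± 3.78 to 74.3 ± 5.81 CPM and Dusp9 fell from 21.3 ± 1.56 to 13.1 ± 1.95 CPM. Dusp16 rose 1.31-fold, a call that DESeq2 did not make (adjusted p = 0.0533) and that edgeR lost without untreated replicate 1 (0.0731) or untreated replicate 2 (0.0549), and Dusp6, the ERK phosphatase, was at 42.2 ± 3.43 and 41.1 ± 2.78 CPM.

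Zbtb16 encodes PLZF, a zinc finger repressor that glucocorticoids and progestins induce strongly in endometrium and other tissues. It had 24, 27 and 16 reads untreated, or 3.66, 3.80 and 2.51 CPM, and 17, 23 and 13 with budesonide, or 2.40, 3.39 and 2.39 CPM. The 2 lowest values were from budesonide libraries, and the groups overlapped. The log2 fold change was -0.28 ± 0.31 (SE; edgeR adjusted p = 0.553), with an interval in fold of 0.532 to 1.27.

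Cebpd rose the most of the 10. It encodes C/EBP-delta, a basic leucine zipper factor of the acute phase response and of early fat cell differentiation. Reads went from 29, 32 and 43 in the untreated libraries to 109, 102 and 92 with budesonide, which is 4.42, 4.50 and 6.76 against 15.4, 15.0 and 16.9 CPM. The groups lay far apart, with the highest untreated library, replicate 3, well below the lowest budesonide one. The log2 fold change was 1.59 ± 0.18 (SE), with a 95% interval of 2.34 to 3.88 in fold and edgeR adjusted p = 9.19e-10. Over the 15 alternatives it lay between 1.49 and 1.82 and passed each time, with the highest adjusted p at 1.43e-08.

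Cebpb encodes C/EBP-beta, which often acts as a dimer with C/EBP-delta. Its libraries were at 8.54, 12.2 and 11.8 CPM untreated and 13.4, 9.27 and 15.8 CPM with budesonide. The second budesonide library lay among the untreated ones. Its log2 difference of 0.22 ± 0.17 (SE) missed the threshold (edgeR adjusted p = 0.382; interval in fold 0.914 to 1.49). Among the other C/EBP genes Ddit3, which encodes the stress factor CHOP, rose from 13.2 ± 0.497 to 29.1 ± 1.20 CPM. Cebpg was at 31.0 ± 4.28 and 32.3 ± 1.77 CPM. Cebpa, the factor of mature liver and fat cells, had too few reads for a test, at 1.85 ± 0.770 and 0.921 ± 0.628 CPM.

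Both C/EBP genes overlap another gene on the opposite strand in GENCODE M21. The strand setting of the counting is not given in the sources used here, so reads in the shared part cannot be told apart. Cebpd shares 562 of its 3746 exonic bases with Spidr, a DNA repair gene that rose from 40.4 ± 2.33 to 48.0 ± 3.85 CPM (edgeR adjusted p = 0.0291). Cebpb shares 312 of its 1504 exonic bases with Tmem189, which fell from 19.6 ± 1.46 to 13.6 ± 1.46 CPM (edgeR adjusted p = 0.00199). Dusp1 shares only 11 bases with Ergic1, at 56.9 ± 2.59 and 53.1 ± 4.07 CPM. The part of these neighbours in the values of Cebpd and Cebpb was not tested.

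**Figure D2:**
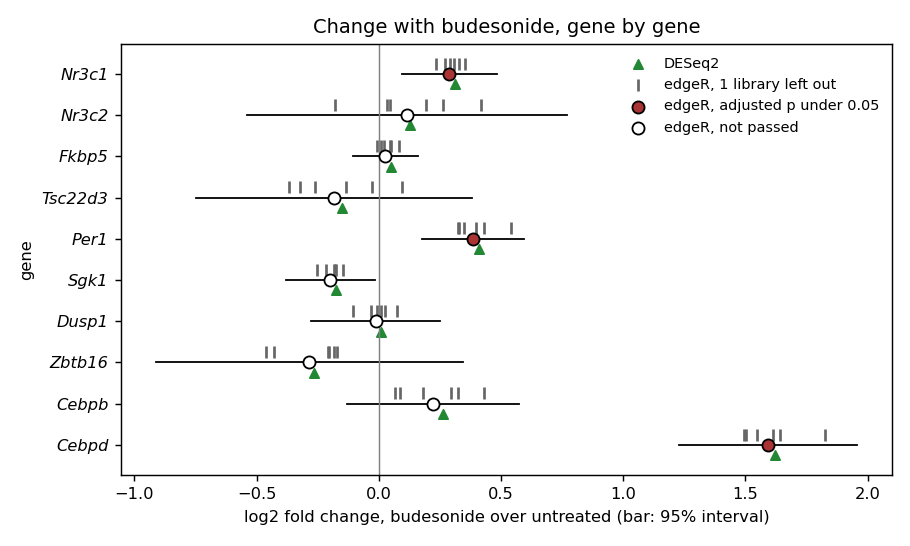
Log2 fold change of each gene, budesonide over untreated, with the edgeR estimate (circle, filled where adjusted p was under 0.05), its 95% interval (bar), the DESeq2 estimate (triangle) and the 6 edgeR estimates with 1 library left out (ticks). Cebpd lies far to the right of the others, at 1.59, and the intervals of Nr3c2, Tsc22d3 and Zbtb16 are the widest.

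Per length, the 10 genes spanned a wide range of levels. In untreated libraries Fkbp5 led with 11.7 ± 0.280 CPM per kilobase of exon (mean ± SD, n = 3), followed by Sgk1 at 9.20 ± 0.199, Cebpb at 7.21 ± 1.34, Per1 at 5.56 ± 0.930, Dusp1 at 5.42 ± 0.169 and Nr3c1 at 4.37 ± 0.364. Cebpd at 1.39 ± 0.354, Tsc22d3 at 0.970 ± 0.287, Zbtb16 at 0.629 ± 0.133 and Nr3c2 at 0.455 ± 0.201 made up the lower end. The libraries of neighbours overlapped for Cebpb and Per1, Per1 and Dusp1, Cebpd and Tsc22d3, and Zbtb16 and Nr3c2, so the order within those pairs was not resolved. With budesonide Cebpd, at 4.21 ± 0.271, kept its place between Nr3c1, at 5.34 ± 0.214, and Tsc22d3, at 0.865 ± 0.215, but its libraries no longer overlapped those of Tsc22d3. Nr3c1 lay above 57.9% of the tested genes in untreated libraries on this scale, Fkbp5 above 79.3% and Nr3c2 above 7.99%. With the length of the longest transcript in place of all merged exons, Fkbp5 and Sgk1 still ranked first and second and Zbtb16 and Nr3c2 last. Between them Nr3c1 kept its place and the others changed places.

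Of 18 chaperone and transport genes tested, 1 rose and 3 fell (5.56% and 16.7%, beside 15.2% and 13.5% of all genes), and the median log2 fold change was -0.05 (-0.13 to 0.01 over the alternatives). Hsp90aa1, the inducible HSP90 that holds the receptor ready for hormone, rose from 3212 ± 310.5 to 4034 ± 274.2 CPM. Its partner Cdc37 fell 1.18-fold, Bag1, which regulates HSP70, 1.28-fold, and Fkbp4 1.18-fold, as given above. With upper quartile scaling or no scaling factors 7 of these genes fell, where 16.7% and 18.6% of all genes did.

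Coregulator genes changed in both directions, with 9 of 26 rising and 7 falling (34.6% and 26.9%, beside 15.2% and 13.5% of all genes). Their median log2 fold change was -0.01, and -0.09 to 0.05 over the alternatives. The steroid receptor coactivators Ncoa3 and Ncoa1 rose from 205.8 ± 6.65 to 361.8 ± 10.9 CPM and from 35.3 ± 5.12 to 53.3 ± 3.05 CPM. Hexim1, an inhibitor of the elongation factor P-TEFb that also binds the receptor, rose 1.55-fold. Med14, a Mediator subunit that contacts the receptor, fell from 101.0 ± 2.62 to 68.9 ± 1.57 CPM, and the arginine methyltransferase gene Carm1 fell 1.45-fold.

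Genes that handle steroids showed 2 rises and 2 falls among 11 tested (18.2% each way, near the 15.2% and 13.5% of all genes). The median log2 fold change of -0.04 was not stable: it was 0.27 without budesonide replicate 2, 0.18 without budesonide replicate 3, 0.17 without untreated replicate 1, 0.06 without untreated replicate 2 and 0.01 without budesonide replicate 1, fits that also tested up to 14 of these genes. Abcb1a and Abcb1b, which encode P-glycoprotein, a pump that exports many drugs and steroids, rose from 10.7 ± 2.01 to 18.5 ± 0.821 CPM and from 59.1 ± 4.93 to 89.0 ± 7.66 CPM. They are close copies of each other, so reads may have been split between them. The drug exporter Abcc1 fell 1.24-fold and the steroid reductase Srd5a1 1.72-fold, though DESeq2 did not call Srd5a1 (adjusted p = 0.0879). Hsd11b1, which regenerates active glucocorticoid, and Hsd11b2, which inactivates it, are named here after their values were seen. Hsd11b1 gave 4.54 ± 0.257 and 4.11 ± 0.770 CPM, which did not pass (edgeR adjusted p = 0.751), and Hsd11b2 stood at 0.560 ± 0.343 and 0.578 ± 0.246 CPM, about the level of 3 reads.

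Of 50 other known glucocorticoid targets tested, 17 rose, 8 fell and 25 did not pass (34.0% and 16.0%, beside 15.2% and 13.5% of all genes), with a median log2 fold change of 0.00 (-0.07 to 0.17 over the alternatives, the highest in DESeq2). Txnip, an inhibitor of thioredoxin, rose from 33.6 ± 1.50 to 82.4 ± 1.87 CPM, the metallothionein gene Mt1 from 79.0 ± 4.12 to 149.4 ± 6.20 CPM and the transcription factor gene Klf9 from 63.7 ± 1.13 to 117.8 ± 1.46 CPM. The cell cycle inhibitors Cdkn1a and Cdkn1c fell from 86.3 ± 1.27 to 50.3 ± 6.82 CPM and from 32.6 ± 2.75 to 16.0 ± 1.48 CPM, and Zfp36l2, an RNA-binding protein that destabilises transcripts, fell 1.53-fold. These genes answer to other signals too, and the list says nothing about which of them the receptor reached. Per2, Tsc22d1 and Dusp4 of this list are also described above with their families.

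Genes that the receptor represses through NF-kB and AP-1 had few reads, with enough for a test in 13 of 30. Of those, 2 rose and none fell (15.4% and 0%, beside 15.2% and 13.5% of all genes), with a median log2 fold change of -0.01 (-0.09 to 0.04 over the alternatives). Jun, a subunit of AP-1, rose from 19.4 ± 0.924 to 40.2 ± 2.49 CPM, and Icam1, an adhesion molecule, from 8.45 ± 0.376 to 14.6 ± 1.99 CPM. Under upper quartile scaling, without scaling factors and without budesonide replicate 3, 1 of them fell. Of all genes, 16.7% and 18.6% fell under those scalings, and 2126 of 18611 without that replicate.

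**Figure D3:**
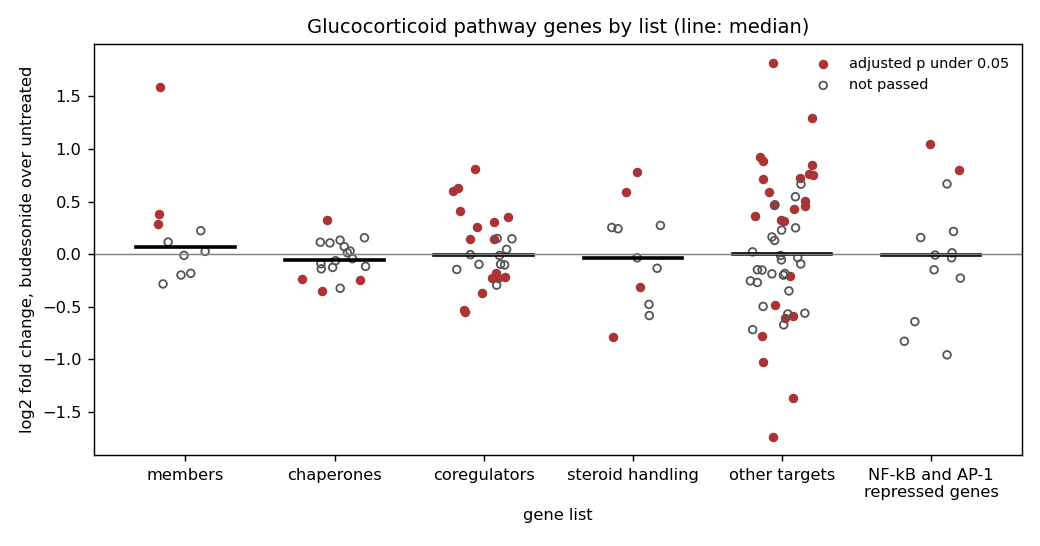
Log2 fold change of every tested gene in 6 lists (filled where edgeR adjusted p was under 0.05), with the median of each list as a line. All 6 medians lie between -0.05 and 0.07, and the filled points of the coregulators and of the other targets lie on both sides of 0.

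**Figure D4:**
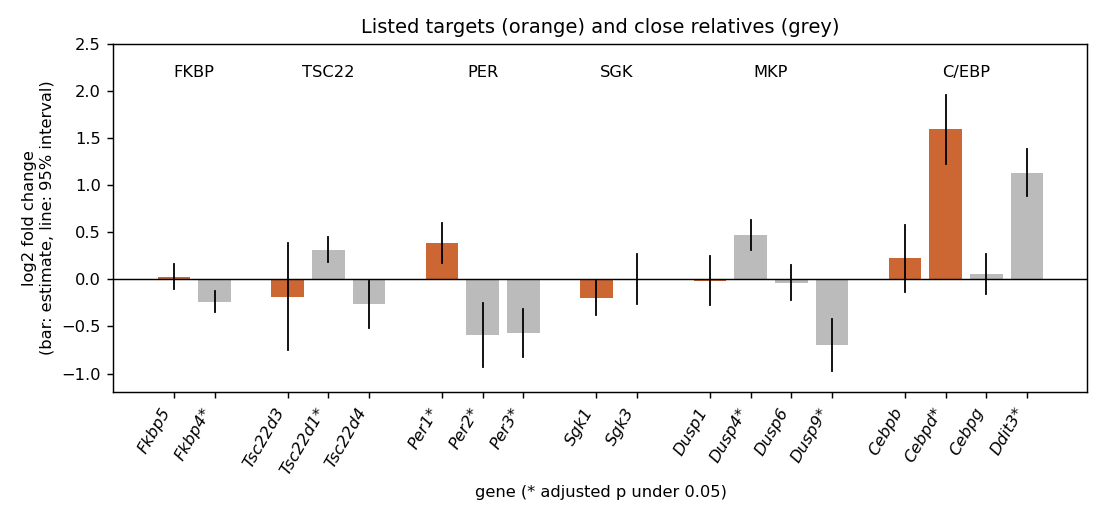
Log2 fold change (bar, with its 95% interval as a line) of 7 of the listed targets (orange) and of close relatives (grey), by family, where MKP are the MAP kinase phosphatases and a star marks an edgeR adjusted p under 0.05. Per1 rose while Per2 and Per3 fell, and Cebpd and Ddit3 rose while Cebpb and Cebpg did not pass. Among the grey bars Per2, Tsc22d1 and Dusp4 are also on the list of other known glucocorticoid targets.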

How the data were processed

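RNA of 3 untreated and 3 budesonide-treated samples was sequenced as stranded mRNA libraries (per the labels). Per the submitters' processing notes, the build is GRCm39 and the tools include STAR 2.7.5c, cutadapt 2.5, featureCounts 2.0, bcl2fastq and DESeq2. Annotation and strand setting: not given in the sources used here. The authors deposited raw counts per gene symbol and a normalized signal for 33560 genes, which equals the counts over a single factor for each library (largest difference 0.0381 reads, tolerance 0.05).

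Groups and replicate numbers came from the titles. The 10 genes and all lists were chosen with earlier results of these data known. Counts were tested with edgeR 4.0.16 in R 4.3.3: genes kept by filterByExpr at a minimum count of 10 and a total of 15, TMM factors, robust quasi-likelihood fits on group alone, and Benjamini-Hochberg adjustment over 17155 genes at 0.05. The F statistic gave the standard errors and 95% intervals. Levels are CPM (counts scaled by library size and TMM factor). Libraries of a group differed by a chi-square of 1.40 to 2.67 per gene, so none repeated another. On simulated counts for this comparison over 17155 genes, edgeR recovered 36%, 82%, 98% and 100% of 50 genes changed 1.25, 1.5, 2 and 4-fold, with 5 false calls. The changed genes all averaged at least 5 CPM, above the level of Nr3c2, Tsc22d3 and Zbtb16. They were also a far smaller share of genes than the 28.7% called in the data. These rates therefore need not hold for those genes or for the real comparison. Named genes were the 10, their closest relatives and, from each list, up to 3 risen and 3 fallen genes of lowest adjusted p whose mean reached 1 CPM; a few of these are not reported here. Exonic lengths were merged GENCODE M21 exons, matched for 97.3% of tested genes by symbol. Start windows and their coordinates are from RefSeq's GRCm38.p6, an earlier build than that of the files, and no coordinates were converted.

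Alternatives were DESeq2 1.42.0, RLE, upper quartile and no scaling factors, no filter, a filter at 1 CPM in 3 libraries, the replicate block, limma 3.58.1 on the deposited normalized counts (log2, 1 added), leaving out each library, and a threshold of 0.01.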

Additional observations from a re-analysis of the deposited data

How the results depend on the processing

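The count of risen genes among the 10 was 2 or 3 in every alternative run. The count of fallen genes was 0, except under upper quartile scaling and when no scaling factors were used, where it was 1, Sgk1. In those settings 16.7% and 18.6% of all genes fell. Of 17155 genes tested 4917 changed, and the count ran from 3317 in DESeq2 to 5189 with no scaling factors. With the replicate block it was 4986. Same-numbered libraries deviated together with correlations of 0.04, 0.06 and -0.02 and did not all correlate best with their own number. These values show no clear pairing, but with 3 libraries a group they cannot exclude one. The block changed no call of a gene named here.

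Signs turned only for genes that did not pass. Fkbp5 (0.03) was at -0.0269 under upper quartile scaling, -0.0532 unscaled, -0.0016 with no filter on low counts, and -0.0055 to 0.0824 with a library left out. Dusp1 (-0.01) was at 0.0105 in DESeq2, 0.002 with limma and -0.11 to 0.0742 with a library left out. With a library left out Nr3c2 ran from -0.18 to 0.42, Tsc22d3 from -0.37 to 0.0931 and Dusp6 from -0.10 to 0.0252. Sgk3 (0.0016) was at -0.0497 under upper quartile scaling, -0.0766 unscaled, -0.0247 with no filter, -0.0030 with the block and -0.0885 to 0.0762 with a library left out, and Cebpg at -0.0232 unscaled. The cause of these turns was not tested.

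Counts in lists moved by over 1.5 times as follows, beside shares of all genes that also moved. The main test had 15.2% higher and 13.5% lower, upper quartile scaling 12.7% and 16.7%, and no scaling factors 11.7% and 18.6%. The share higher was 4.32% with no filter and 11.3% at a threshold of 0.01. DESeq2 had 13.5% higher, and 1318 of its 14809 genes fell. It also tested fewer genes of some lists, such as 44 other targets in place of 50. With limma 1832 of 33560 genes fell. In DESeq2 the other targets fell in 5 cases in place of 8, clock genes in 1 in place of 3, steroid handling genes in 1 in place of 2, chaperones rose in 2 in place of 1, MAP kinase phosphatases in 1 in place of 2 and steroid receptors in 1 in place of 2. Under upper quartile scaling, and likewise when no scaling factors were used, 7 chaperones fell in place of 3, 4 SGK and AKT genes in place of 2, 2 MAP kinase phosphatases in place of 1 and 1 TSC22 gene in place of 0, and 1 steroid receptor rose in place of 2, as also with no filter and at a threshold of 0.01. With limma 4 coregulators fell in place of 7. With a library left out chaperones rose in up to 3 cases, and MAP kinase phosphatases and steroid receptors in as few as 1, while without untreated replicate 1 a single FK506-binding protein gene fell in place of 2. Of all genes, 1916 of 18286 fell without untreated replicate 1. Without budesonide replicate 2, where 3 chaperones rose, 2634 of 18043 genes rose. The few reads of Nr3c2, Tsc22d3 and Zbtb16 limit what could be detected for them.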

Other observations

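Several of the 10 genes are also induced by serum and stress, and Cebpd also answers to STAT3. None of the 10 is on the lists of such genes below. The part of these signals in the changes above was not tested. Of 28 tested early genes that serum and stress induce, 12 rose and 4 fell (42.9% and 14.3%, beside 15.2% and 13.5% of all genes tested). Their median log2 fold change was 0.19, and 0.11 to 0.27 over the alternatives. Klf6 rose from 24.8 ± 1.71 to 55.6 ± 3.24 CPM, Klf2 from 52.8 ± 6.91 to 104.9 ± 9.49 CPM and Mcl1, a survival factor, from 317.1 ± 4.10 to 467.4 ± 20.3 CPM (mean ± SD, n = 3 per group), while Egr3 fell 2.22-fold and Fosl2 1.78-fold. Of 12 genes around interleukin 6 and STAT3 tested, 6 rose and 3 fell, where 15.2% and 13.5% of all genes did. Their median log2 fold change was 0.33, and 0.06 to 0.38 over the alternatives. It was lowest with no filter on low counts, where 18 of these genes were tested, and 0.16 with limma, where 17 were. The receptor genes Lifr and Il6st rose 2.05-fold and 1.32-fold and the transcription factor gene Tfcp2l1 1.98-fold, whereas the feedback inhibitor Socs3 fell from 6.31 ± 1.97 to 2.85 ± 0.752 CPM and Pim1, a kinase gene, 2.19-fold. Gbx2, also on this list, fell from 79.4 ± 7.59 to 15.6 ± 0.619 CPM.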
